A study of Homo sapiens with 12 samples.

Results

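The 8 genes followed here are transcription factors and enzymes of forebrain GABA neurons: the homeobox genes DLX1, DLX2, DLX5 and DLX6, the LIM homeobox gene LHX6, the glutamate decarboxylases GAD1 and GAD2, and the vesicular GABA transporter SLC32A1. They were taken as a list of symbols, and 8 of 8 matched 1 gene among the 63925 gene identifiers counted in each library. All 8 passed the filter on low counts, which left 17819 genes for testing. RNA came from neural cultures differentiated from the human embryonic stem cell lines H9 and H1 by dual SMAD inhibition over 10 weeks and held in neurobasal medium with B-27, ascorbic acid, cyclic AMP, BDNF and GDNF. The groups were H9 cultures given 1 µM dexamethasone, a synthetic glucocorticoid receptor agonist, for 6 h, H9 cultures given the DMSO vehicle for 6 h, and H1 cultures given the same dexamethasone or vehicle. Each of the 4 groups had 3 numbered cultures, called sister cultures here. Each line stands for 1 genetic background, and the sources do not say whether each line was differentiated more than once, so a difference between H9 and H1 and a difference between differentiation runs cannot be told apart.

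In the embryonic ventral forebrain, progenitors that express GSX genes switch on DLX1 and DLX2, which activate DLX5 and DLX6 and hold immature GABA neurons on their course. LHX6 follows in cells of the medial ganglionic eminence, the source of somatostatin and parvalbumin interneurons of the cortex. GAD1 and GAD2 make GABA from glutamate and SLC32A1 loads it into synaptic vesicles, and these 3 genes are used by GABA neurons throughout the brain and spinal cord, also where DLX genes are silent.

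By group, the libraries totalled 20871163 to 27505804 counts (H9 dexamethasone), 14751168 to 24728048 (H9 vehicle), 23677289 to 25495510 (H1 dexamethasone) and 22839733 to 25597731 (H1 vehicle). The third H9 vehicle culture differed from its sisters: it gave the smallest total, and mitochondrially encoded RNA made up 0.607% of its counts, where the remaining H9 libraries had 4.80% to 5.64%. Levels are CPM (counts scaled to library size, here with TMM factors) and fold changes are log2, tested with edgeR's quasi-likelihood F-test over all 17819 genes at an adjusted p of 0.05, where called means past that threshold. Pan-neuronal markers were present in every library, with a summed level over 10 genes of 5768 to 5882 CPM in H9 dexamethasone, 4285 to 5421 in H9 vehicle, 3817 to 4434 in H1 dexamethasone and 3969 to 3981 CPM in H1 vehicle cultures. A count of 0 in these files was not read as absence, since SOX2 of neural progenitors and TUBB, a widely used tubulin, were listed at 0 in all 12 libraries.

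The 4 DLX genes form convergent pairs, DLX1 with DLX2 and DLX6 with DLX5. DLX1 (ENSG00000144355.14) lies on the plus strand of chromosome 2 at 172084740 to 172089677, and DLX2 (ENSG00000115844.10) on the minus strand at 172099439 to 172102900, with 9761 bases between them (GRCh38, GENCODE 29). DLX6 (ENSG00000006377.10, chromosome 7, 97005548 to 97011039, plus strand) and DLX5 (ENSG00000105880.4, chromosome 7, 97020392 to 97024950, minus strand) are 9352 bases apart. The antisense gene DLX6-AS1 spans DLX6 but shares 0 exon bases with it. LHX6 (ENSG00000106852.15) is on chromosome 9 at 122202577 to 122229626, minus strand, GAD2 (ENSG00000136750.11) on chromosome 10 at 26216307 to 26304558, plus strand, and SLC32A1 (ENSG00000101438.3) on chromosome 20 at 38724462 to 38729372, plus strand. GAD1 (ENSG00000128683.13, chromosome 2, 170813213 to 170861151, plus strand) shares 468 exon bases with an antisense gene, AC007405.2. Because the strand setting of the counting is not given in the sources used here, reads from those bases cannot be assigned to 1 strand.

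The proximal promoters of DLX1, DLX2 and DLX6, whose RNA was lower together in H9, are shown with that of GAD1, whose RNA was not, as the 250 bases before the RefSeq start (GRCh38.p14). Capitals mark CCAAT, the letters of the box bound by NF-Y, and TATAAA, the letters of a TATA box, on either strand, so that ATTGG and TTTATA are their reverse complements. The windows are chr2:172085257-172085506 (plus) for DLX1, chr2:172102901-172103150 (minus) for DLX2, chr7:97005303-97005552 (plus) for DLX6 and chr2:170816637-170816886 (plus) for GAD1.
DLX1 promoter: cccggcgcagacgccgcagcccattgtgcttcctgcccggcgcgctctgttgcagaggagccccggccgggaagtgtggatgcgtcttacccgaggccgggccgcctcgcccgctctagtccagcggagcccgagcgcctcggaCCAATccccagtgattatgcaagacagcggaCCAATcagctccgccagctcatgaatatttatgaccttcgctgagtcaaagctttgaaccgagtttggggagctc
DLX2 promoter: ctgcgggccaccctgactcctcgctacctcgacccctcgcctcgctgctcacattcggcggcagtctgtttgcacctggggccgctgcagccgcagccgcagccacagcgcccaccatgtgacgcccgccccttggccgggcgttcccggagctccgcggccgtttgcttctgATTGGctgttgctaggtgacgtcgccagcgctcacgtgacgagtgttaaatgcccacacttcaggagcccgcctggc
DLX6 promoter: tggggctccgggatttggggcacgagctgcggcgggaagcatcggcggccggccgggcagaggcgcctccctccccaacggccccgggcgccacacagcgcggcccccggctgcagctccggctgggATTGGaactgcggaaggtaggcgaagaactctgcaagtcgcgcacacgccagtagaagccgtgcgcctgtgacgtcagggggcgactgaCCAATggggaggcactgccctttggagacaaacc
GAD1 promoter: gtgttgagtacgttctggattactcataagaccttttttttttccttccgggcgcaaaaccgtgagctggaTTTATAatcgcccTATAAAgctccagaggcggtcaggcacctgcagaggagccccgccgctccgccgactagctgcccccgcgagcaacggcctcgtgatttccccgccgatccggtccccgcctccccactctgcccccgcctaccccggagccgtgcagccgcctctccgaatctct
The DLX1 window held CCAAT 2 times, beginning 106 and 75 bases before the start, the DLX2 window 1 time, at 77 bases, and the DLX6 window 2 times, at 123 and 34 bases. The GAD1 window lacked those letters and held the TATA box letters 2 times, at 179 and 166 bases. Of 35116 RefSeq promoter windows of this length, 32% held the CCAAT letters and 10.7% those of the TATA box. The table had 10 windows for 7 of the 8 genes, 3 of them for LHX6 and 2 for GAD2, with no entry for DLX5. Of these 10, 6 held the CCAAT box letters and 2 those of the TATA box. CCAAT was also in the SLC32A1 window, at 166 and 120 bases, and in 1 GAD2 window, at 179 bases. For LHX6, whose RNA was lower in H9, it was in 1 of 3 windows, at 132 bases. The letters thus did not separate the genes lower in H9 from the GABA genes. The core read by many homeodomains, TAATTA, was in 0 of the 10 windows and 4.35% of all windows. A half-site of the glucocorticoid receptor, TGTTCT, was in 0 of the 10 and 12.4% of all. Both strands were searched, no match overlapped a match of another motif in the 4 windows shown, and a match or its lack describes only these windows.

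H9 cultures held less RNA of all 4 DLX genes and of LHX6 than H1 cultures, in both treatments, while the GABA synthesis and transport genes did not share that pattern. In vehicle cultures, 5 of the 8 genes were called lower in H9, beside 21.2% of all genes tested, and 2 of 8, GAD1 and SLC32A1, were called higher, a share close to the 25.7% of all genes. In dexamethasone cultures the same 5 genes were called lower, beside 21.2% of all genes, and 0 of 8 were called higher, beside 22.5%. The median log2 fold change of the 8 was −1.31 in vehicle and −1.44 in dexamethasone cultures, against 0.03 and −0.01 over all genes. The share of all genes whose libraries separate the lines without overlap was not counted. Such separations are therefore given below only as descriptions of single genes. Bulk RNA cannot tell fewer cells of a type from less RNA per cell, so each level stands for the whole culture.

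DLX1, with DLX2 the first of the family to be switched on in ventral forebrain progenitors, stood at 22.6, 29.6 and 22.6 CPM in H9 dexamethasone cultures and 22.2, 26.2 and 17.1 in H9 vehicle cultures, against 118.6, 90.5 and 118.7 in H1 dexamethasone and 53.8, 71.9 and 82.3 CPM in H1 vehicle cultures. Every H9 library was below every H1 library. The log2 fold change of H9 over H1 was −1.66 ± 0.20 (SE) in vehicle cultures (edgeR adjusted p = 4.01e-05) and −2.13 ± 0.20 in dexamethasone cultures (edgeR adjusted p = 5.85e-06).

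DLX2, its convergent neighbour, had 11.1, 12.6 and 10.8 CPM in H9 dexamethasone and 10.4, 13.2 and 4.69 CPM in H9 vehicle cultures, against 56.7, 44.8 and 63.6 CPM in H1 dexamethasone and 27.0, 42.1 and 44.8 CPM in H1 vehicle cultures. The lines did not overlap, and H9 vehicle culture 3 was the lowest of all 12. The log2 fold changes of H9 over H1 were −1.99 ± 0.30 in vehicle (edgeR adjusted p = 0.000226) and −2.26 ± 0.30 in dexamethasone cultures (edgeR adjusted p = 8.62e-05). Without H9 vehicle culture 3 the first was −1.69 and still called.

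DLX5, which acts after DLX1 and DLX2 in maturing GABA neurons, had 6.95, 10.6 and 6.75 CPM in H9 dexamethasone and 6.60, 9.81 and 2.85 CPM in H9 vehicle cultures, against 30.3, 21.4 and 34.1 CPM in H1 dexamethasone and 18.7, 24.1 and 25.8 CPM in H1 vehicle cultures. Again no H9 library reached an H1 library. Its log2 fold change was −1.80 ± 0.34 in vehicle (edgeR adjusted p = 0.00111) and −1.82 ± 0.34 in dexamethasone cultures (edgeR adjusted p = 0.000955).

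DLX6, its partner in the second pair, had 9.12, 9.10 and 8.40 CPM in H9 dexamethasone and 6.89, 10.1 and 6.18 CPM in H9 vehicle cultures, against 20.3, 15.0 and 20.5 CPM in H1 dexamethasone and 12.7, 15.7 and 16.7 CPM in H1 vehicle cultures. The gap between the lines was narrower than for the other 3 DLX genes, with log2 fold changes of −0.95 ± 0.19 in vehicle (edgeR adjusted p = 0.00175) and −1.07 ± 0.19 in dexamethasone cultures (edgeR adjusted p = 0.000748). The ratio of DLX5 to DLX6 counts was 0.762 to 1.16 in H9 dexamethasone and 0.462 to 0.967 in H9 vehicle libraries, against 1.43 to 1.66 in H1 dexamethasone and 1.47 to 1.55 in H1 vehicle libraries. DLX5 counts thus outnumbered those of DLX6 in all 6 H1 libraries, and in H9 only in dexamethasone culture 2. DLX5 has less exon, at 1.748 kb against 3.449 kb for DLX6, where exon length merges all annotated exons of a gene. Per kilobase of exon in H9, DLX5 averaged 4.63 ± 1.23 CPM with dexamethasone and 3.67 ± 1.99 with vehicle, against 2.57 ± 0.12 and 2.24 ± 0.61 for DLX6. The ratio of DLX1 to DLX2 counts did not separate the lines, at 1.71 to 2.34 in 11 libraries and 3.65 in H9 vehicle culture 3.

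LHX6, the LIM homeobox factor of interneurons from the medial ganglionic eminence, was the scarcest of the 8 per kilobase of exon. It had 2.12, 1.54 and 1.53 CPM in H9 dexamethasone and 1.62, 2.88 and 1.09 CPM in H9 vehicle cultures, against 7.95, 11.8 and 9.76 CPM in H1 dexamethasone and 4.28, 13.6 and 10.5 CPM in H1 vehicle cultures. The lines did not overlap, although H1 vehicle culture 1 stood well below its sisters. The log2 fold change was −2.30 ± 0.41 in vehicle (edgeR adjusted p = 0.000763) and −2.51 ± 0.41 in dexamethasone cultures (edgeR adjusted p = 0.000427).

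**Figure D1:**
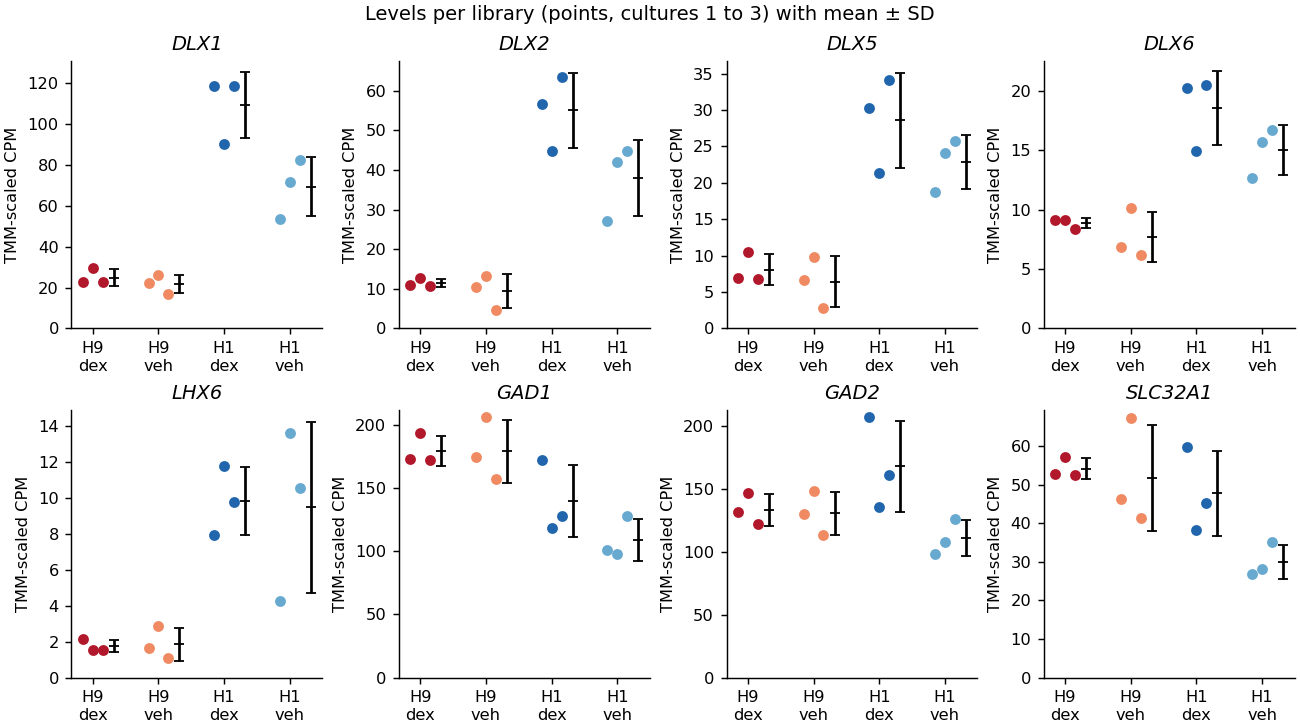
Levels of the 8 genes in TMM-scaled CPM (vertical axes, linear from 0) in H9 dexamethasone, H9 vehicle, H1 dexamethasone and H1 vehicle cultures. Points are the 3 cultures of a group in the order 1 to 3, and bars are the mean ± SD. The DLX genes and LHX6 are lower in all 6 H9 libraries, as for DLX1 at 17.1 to 29.6 CPM in H9 against 53.8 to 118.7 CPM in H1, whereas for GAD1, GAD2 and SLC32A1 the ranges of the 6 H9 and the 6 H1 libraries overlap.

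GAD1, whose enzyme makes GABA throughout the neuron, had 173.3, 193.6 and 172.3 CPM in H9 dexamethasone and 174.9, 206.2 and 157.1 CPM in H9 vehicle cultures, against 172.0, 118.6 and 128.0 CPM in H1 dexamethasone and 101.1, 98.0 and 128.1 CPM in H1 vehicle cultures. H9 was higher in vehicle cultures with no overlap, at a log2 fold change of 0.72 ± 0.16 (edgeR adjusted p = 0.00309). In dexamethasone cultures the difference was 0.37 ± 0.16 (edgeR adjusted p = 0.0815), where the highest H1 library and the lowest H9 library nearly met. GAD1 then passed in 3 of 20 other settings, among them the fit without H9 vehicle culture 3 (edgeR adjusted p = 0.0160).

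SLC32A1, the vesicular GABA transporter, had 52.7, 57.3 and 52.7 CPM in H9 dexamethasone and 46.2, 67.3 and 41.4 CPM in H9 vehicle cultures, against 59.9, 38.2 and 45.3 CPM in H1 dexamethasone and 26.8, 28.0 and 35.1 CPM in H1 vehicle cultures. It was higher in H9 vehicle cultures, with no overlap, by 0.79 ± 0.20 on the log2 scale (edgeR adjusted p = 0.00651). Between the dexamethasone cultures the libraries overlapped, and the log2 difference was 0.18 ± 0.20 with a 95% interval of −0.24 to 0.61 (edgeR adjusted p = 0.483).

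GAD2, whose enzyme is concentrated in axon terminals, had 131.2, 146.6 and 121.6 CPM in H9 dexamethasone and 130.1, 147.8 and 113.5 CPM in H9 vehicle cultures, against 206.9, 135.4 and 161.1 CPM in H1 dexamethasone and 97.9, 107.7 and 126.0 CPM in H1 vehicle cultures. Its libraries overlapped between the lines in both treatments. The log2 fold change of H9 over H1 was 0.24 ± 0.16 in vehicle cultures (95% interval −0.11 to 0.59, edgeR adjusted p = 0.238) and −0.33 ± 0.16 in dexamethasone cultures (−0.68 to 0.02, edgeR adjusted p = 0.113). Without H9 vehicle culture 3 the second had an adjusted p of 0.0281 in edgeR.

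**Figure D2:**
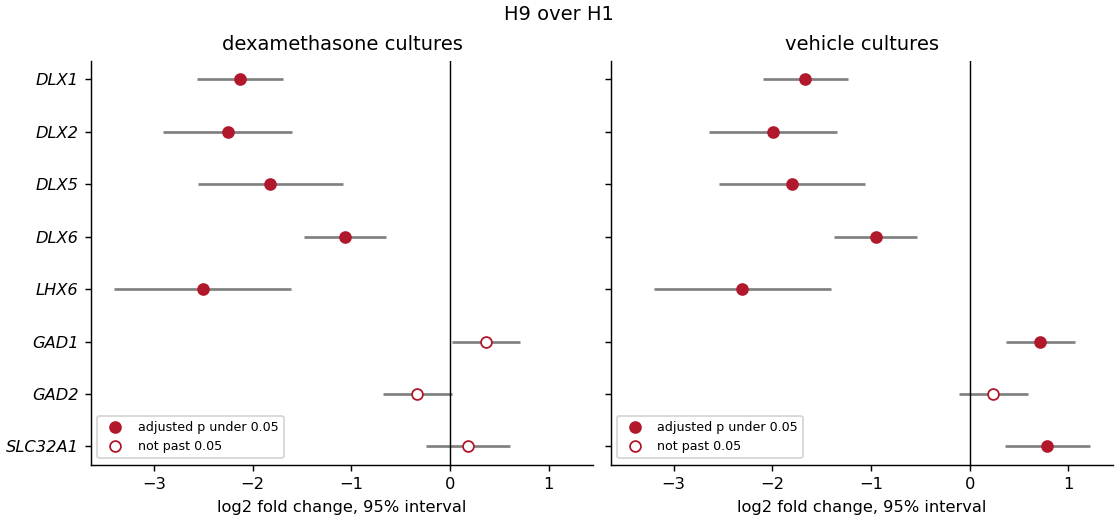
Log2 fold change of H9 over H1 for each gene (horizontal axis) with its 95% interval, in dexamethasone cultures (left) and vehicle cultures (right). Filled points passed an edgeR adjusted p of 0.05 over all genes and open points did not. The 4 DLX genes and LHX6 lie between −0.95 and −2.51 in both panels, and GAD1 and SLC32A1 are filled, at 0.72 and 0.79, only in the vehicle panel.

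The proportion of the 2 kinds of gene differed between the lines. Summed over DLX1, DLX2, DLX5 and DLX6, the level was 48.5 to 61.9 CPM in H9 dexamethasone and 30.8 to 59.3 CPM in H9 vehicle cultures, against 171.7 to 236.9 CPM in H1 dexamethasone and 112.3 to 169.6 CPM in H1 vehicle cultures. Summed over GAD1, GAD2 and SLC32A1 it was 346.5 to 397.5 CPM in H9 dexamethasone and 312.0 to 421.3 CPM in H9 vehicle cultures, against 292.2 to 438.8 CPM in H1 dexamethasone and 225.7 to 289.2 CPM in H1 vehicle cultures. The ratio of the DLX sum to the GABA sum was 0.139 to 0.156 in H9 dexamethasone and 0.0988 to 0.141 in H9 vehicle libraries, against 0.515 to 0.708 in H1 dexamethasone and 0.497 to 0.658 in H1 vehicle libraries. The lines did not overlap. The ratio of GAD1 to GAD2 counts also kept the lines apart, at 1.32 to 1.42 in H9 dexamethasone and 1.34 to 1.39 in H9 vehicle libraries, against 0.794 to 0.876 in H1 dexamethasone and 0.910 to 1.03 in H1 vehicle libraries.

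Set against the summed pan-neuronal markers, the DLX genes remained lower in H9, at 0.825% to 1.05% of that sum in H9 dexamethasone and 0.720% to 1.09% in H9 vehicle libraries, against 3.87% to 6.21% in H1 dexamethasone and 2.83% to 4.26% in H1 vehicle libraries. The summed GABA genes overlapped on this scale, at 5.89% to 6.76% in H9 dexamethasone and 6.61% to 7.77% in H9 vehicle libraries, against 6.59% to 10.8% in H1 dexamethasone and 5.69% to 7.26% in H1 vehicle libraries. In vehicle cultures GAD1 did not overlap, at 3.29% to 3.80% in H9 and 2.46% to 3.22% in H1, while SLC32A1 did, at 0.869% to 1.24% in H9 and 0.674% to 0.880% in H1. In dexamethasone cultures GAD2 did not overlap and was lower in H9, at 2.07% to 2.49% in H9 and 3.05% to 5.10% in H1. The pan-neuronal markers themselves had 4 of 10 genes called higher and 1 called lower in H9 vehicle cultures, beside 25.7% and 21.2% of all genes.

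**Figure D3:**
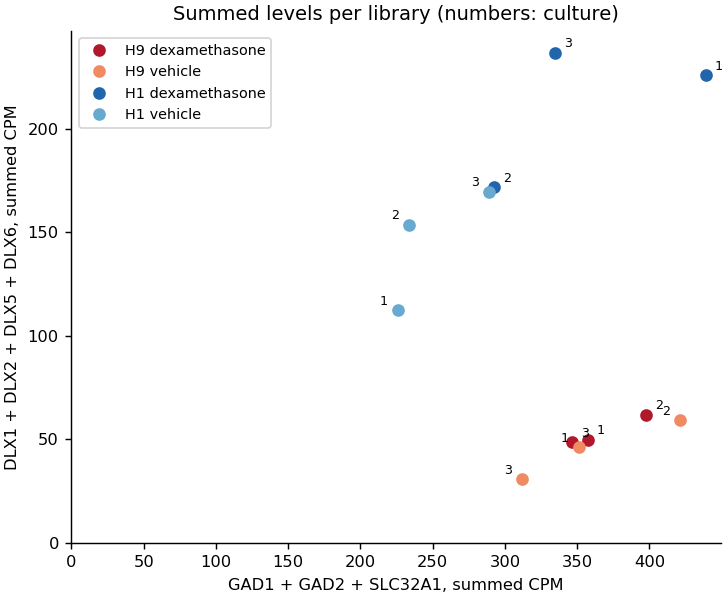
Summed level of DLX1, DLX2, DLX5 and DLX6 (vertical axis, CPM) against that of GAD1, GAD2 and SLC32A1 (horizontal axis, CPM), 1 point per library, coloured by line and treatment and numbered by culture. The H9 libraries lie between 30.8 and 61.9 CPM of DLX RNA and the H1 libraries between 112.3 and 236.9 CPM, over a shared range of GABA gene RNA.

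Levels of different genes were set beside each other per kilobase of exon. Merged exons can be longer than the transcripts present, so the order of genes on this scale is approximate. On it the 3 GABA genes were alike in H9 vehicle cultures. GAD1 was at 21.8 ± 3.0, GAD2 at 20.9 ± 2.8 and SLC32A1 at 20.1 ± 5.3 CPM per kb (mean ± SD, n = 3), which lie within their spread. DLX1 followed at 5.97 ± 1.24, then DLX5 at 3.67 ± 1.99, DLX2 at 3.17 ± 1.45 and DLX6 at 2.24 ± 0.61 CPM per kb, where each gene overlaps its neighbour in this order within their SD. LHX6 was last at 0.324 ± 0.160 CPM per kb. In H1 vehicle cultures DLX1, at 19.0 ± 3.9 CPM per kb, was level with GAD2 at 17.7 ± 2.3, followed by GAD1 at 13.2 ± 2.0, DLX5 at 13.1 ± 2.1, DLX2 at 12.8 ± 3.2 and SLC32A1 at 11.6 ± 1.7 CPM per kb. Those 4 were within their spread, with DLX6 at 4.36 ± 0.60 and LHX6 at 1.65 ± 0.83 CPM per kb below them.

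After 6 h of dexamethasone none of the 8 genes was called in either line. In H9, 0 of 8 passed, beside 0.0673% of all genes tested, and 0 of 8 had an unadjusted p under 0.05, beside 16.3% of all genes. The log2 fold changes of dexamethasone over vehicle in H9 were 0.19 ± 0.20 for DLX1, 0.27 ± 0.30 for DLX2, 0.30 ± 0.34 for DLX5, 0.19 ± 0.19 for DLX6, −0.16 ± 0.45 for LHX6, 0.00 ± 0.16 for GAD1, 0.03 ± 0.16 for GAD2 and 0.07 ± 0.20 for SLC32A1 (edgeR adjusted p 0.553 to 0.996). Dexamethasone and vehicle libraries of H9 overlapped for all 8 genes, and 0 of 8 had every dexamethasone library above every vehicle library, beside 9.77% of all genes. H9 vehicle culture 3 was the lowest H9 vehicle library for each of the 8. Without it the H9 values were 0.05 for DLX1, −0.03 for DLX2, −0.02 for DLX5, 0.06 for DLX6, −0.39 for LHX6, −0.08 for GAD1, −0.06 for GAD2 and −0.06 for SLC32A1.

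In H1, 0 of 8 passed, beside 0.0505% of all genes, while the fitted values were all above 0, with a median log2 fold change of 0.44 against −0.00 over all genes. Unadjusted p-values were under 0.05 for 4 of the 8, beside 2.95% of all genes. SLC32A1 differed by 0.67 ± 0.20 (95% interval 0.25 to 1.10), DLX1 by 0.66 ± 0.19 (0.24 to 1.07) and GAD2 by 0.60 ± 0.16 (0.25 to 0.95), with edgeR adjusted p-values of 1, 1 and 0.964. GAD1 differed by 0.36 ± 0.16, DLX2 by 0.53 ± 0.28, DLX5 by 0.32 ± 0.32, DLX6 by 0.31 ± 0.19 and LHX6 by 0.05 ± 0.36, each with an edgeR adjusted p of 1. With 1 library left out, GAD1 ranged from 0.18 to 0.49, DLX2 from 0.34 to 0.67, DLX5 from 0.18 to 0.49 and DLX6 from 0.20 to 0.44. For DLX1, DLX2, GAD2 and SLC32A1 every dexamethasone library was above every vehicle library, which is 4 of 8 beside 7.15% of all genes, although DLX2 libraries met at 44.8 CPM.

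The H1 values varied between sister cultures. H1 dexamethasone culture 1 had the most GAD1, GAD2 and SLC32A1 of its group, at 172.0, 206.9 and 59.9 CPM, and culture 2 the least DLX RNA, at 171.7 CPM over the 4 genes against 169.6 CPM in the highest H1 vehicle library. None of the 8 passed in any of 20 other settings. Adjusted p-values came closest without H9 vehicle culture 3, at 0.0550 for GAD2, 0.0561 for DLX1 and 0.0853 for SLC32A1 in edgeR. That library is in neither group of this comparison and enters it through the spread that all groups share.

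**Figure D4:**
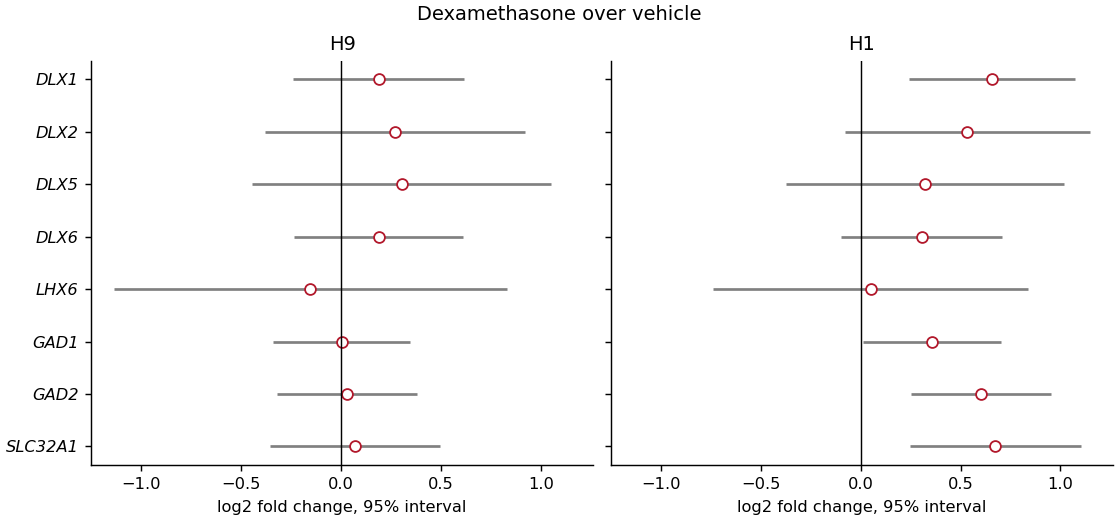
Log2 fold change of dexamethasone over vehicle for each gene (horizontal axis) with its 95% interval, in H9 (left) and H1 (right). Open points did not pass an edgeR adjusted p of 0.05 over all genes, which holds for all 16 points. Values in H9 lie between −0.16 and 0.30 and those in H1 between 0.05 and 0.67.

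Averaged over both lines, 0 of 8 genes passed, beside 0.101% of all genes, and 3 of 8 had an unadjusted p under 0.05, beside 7.49% of all genes. The mean effect was 0.42 ± 0.14 for DLX1, 0.37 ± 0.14 for SLC32A1 and 0.32 ± 0.11 for GAD2 (edgeR adjusted p 0.553, 0.605 and 0.598). The difference between the lines, the H9 effect minus the H1 effect, passed for 0 of 8, beside 0% of all genes. In edgeR 1329 genes, 7.46%, had an unadjusted p under 0.05 for this difference, and DESeq2 and limma-voom also called 0 genes. The difference was −0.61 ± 0.28 for SLC32A1, −0.57 ± 0.23 for GAD2 and −0.47 ± 0.27 for DLX1, each with an edgeR adjusted p of 0.548, so these data do not show that the lines responded differently. DESeq2 and limma-voom likewise called 0 of the 8 for each dexamethasone comparison.

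Other genes of the same pathway were read from lists, of which no gene was called for dexamethasone in either line, in their mean or in their difference. Of 6 DLX relatives and antisense genes on a list, 4 matched a counted gene by name, while GAD1-AS1 and LHX6-AS1 did not, so their levels are unknown. DLX6-AS1, the long noncoding RNA antisense to DLX6, was the only one of the 4 with enough counts to test. It averaged 44.0 ± 14.3 CPM in H9 dexamethasone and 37.9 ± 3.8 CPM in H9 vehicle cultures, against 309.9 ± 54.6 CPM in H1 dexamethasone and 263.5 ± 59.6 CPM in H1 vehicle cultures (mean ± SD, n = 3). It was lower in H9 by a log2 fold change of −2.79 ± 0.25 in vehicle and −2.82 ± 0.25 in dexamethasone cultures (edgeR adjusted p = 4.14e-06 and 3.48e-06). Its counts were 3.52 to 6.40 times those of DLX6 in H9 and 14.4 to 19.1 times in H1. DLX6-AS1 has more exon, at 16.633 kb against 3.449 kb for DLX6. Per kilobase of exon it averaged 2.28 ± 0.23 CPM in H9 vehicle cultures, within the spread of DLX6 at 2.24 ± 0.61. In H1 vehicle cultures DLX6-AS1 averaged 15.8 ± 3.6 CPM per kb, against 4.36 ± 0.60 for DLX6.

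Of 24 ventral forebrain factors, 22 were tested. In vehicle cultures 7 were called lower and 3 higher in H9 (median log2 fold change −0.15), beside 21.2% and 25.7% of all genes. In dexamethasone cultures 9 were called lower and 2 higher (median −0.32), beside 21.2% and 22.5%. GSX1, a homeobox factor of ventral progenitors, was lower in vehicle cultures by −2.66 ± 0.58 (edgeR adjusted p = 0.00265) and VAX1 of the basal forebrain by −1.86 ± 0.22 (3.37e-05). GSX1 was low in both lines, at 0.46 ± 0.17 CPM in H9 vehicle and 2.92 ± 1.31 CPM in H1 vehicle cultures. GSX2 was at 0 in all 12 libraries. VAX1 averaged 5.14 ± 1.19 CPM in H9 dexamethasone and 5.32 ± 1.21 CPM in H9 vehicle cultures, against 21.3 ± 4.2 CPM in H1 dexamethasone and 19.4 ± 2.3 CPM in H1 vehicle cultures. SP8, a zinc finger factor of the dorsal lateral and caudal ganglionic eminences, went the other way, at 21.0 ± 1.5 CPM in H9 dexamethasone and 18.6 ± 1.1 CPM in H9 vehicle cultures, against 7.91 ± 1.94 CPM in H1 dexamethasone and 6.15 ± 0.40 CPM in H1 vehicle cultures (vehicle log2 fold change 1.60 ± 0.16, edgeR adjusted p = 9.36e-06). NKX2-1, which specifies the medial ganglionic eminence and precedes LHX6, was chosen after its values were seen. It was low, at 1.01 ± 0.59 CPM in H9 dexamethasone and 1.21 ± 0.60 CPM in H9 vehicle cultures, against 3.36 ± 0.47 CPM in H1 dexamethasone and 1.85 ± 0.63 CPM in H1 vehicle cultures. Its log2 fold change was −0.68 ± 0.45 in vehicle (edgeR adjusted p = 0.232) and −1.75 ± 0.43 in dexamethasone cultures (0.00633).

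The lists of interneuron subtype and striatal projection neuron genes are read beside the 25.7% of all genes called higher and 21.2% called lower in H9 vehicle cultures. In dexamethasone cultures these shares were 22.5% and 21.2%. Of 18 interneuron subtype genes 13 were tested, of which 4 were called higher and 2 lower in H9 vehicle cultures (median 0.25), and 5 higher and 2 lower in dexamethasone cultures (median 0.68). CRHBP, a binding protein of corticotropin-releasing hormone, was higher by 2.65 ± 0.22 (edgeR adjusted p = 2.66e-06) and NOS1, the neuronal nitric oxide synthase, by 2.15 ± 0.19 (3.91e-06). The receptor gene KIT was higher by 0.81 ± 0.23 (edgeR adjusted p = 0.0129). ACKR3, an atypical chemokine receptor of migrating interneurons, was lower by −1.09 ± 0.27 (edgeR adjusted p = 0.00566). SST, the somatostatin gene and an outcome of LHX6 in cortical interneurons, was also picked after its values were seen. It had 23.7 ± 4.7 CPM in H9 dexamethasone and 21.4 ± 0.8 CPM in H9 vehicle cultures, against 31.9 ± 9.8 CPM in H1 dexamethasone and 25.9 ± 2.7 CPM in H1 vehicle cultures. It did not pass (vehicle log2 fold change −0.28 ± 0.20, edgeR adjusted p = 0.264). Of 13 striatal projection neuron genes 12 were tested, with 4 called higher and 1 lower in vehicle cultures (median 0.75) and 6 higher and 1 lower in dexamethasone cultures (median 0.92). PDYN, the prodynorphin gene, was higher by 1.75 ± 0.45 (edgeR adjusted p = 0.00726), the dopamine receptor gene DRD2 by 1.09 ± 0.24 (0.00264) and PPP1R1B, encoding DARPP-32, by 0.81 ± 0.26 (0.0239). The forkhead factor FOXP1 was lower by −0.65 ± 0.09 (0.000169).

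Genes that take up and break down GABA are read beside the same shares of all genes in each treatment. Of 9 uptake, breakdown and chloride transport genes, all tested, 5 were called higher and 1 lower in vehicle cultures (median 0.89), and 5 higher and 2 lower in dexamethasone cultures (median 0.35). SLC6A11, the GABA transporter GAT3 found mainly on astrocytes, averaged 17.9 ± 4.3 CPM in H9 dexamethasone and 16.7 ± 1.3 CPM in H9 vehicle cultures, against 1.55 ± 0.46 CPM in H1 dexamethasone and 2.12 ± 0.50 CPM in H1 vehicle cultures (vehicle log2 fold change 2.98 ± 0.25, edgeR adjusted p = 2.74e-06). SLC12A5, the KCC2 chloride exporter of mature neurons, was higher by 1.5 ± 0.12 (edgeR adjusted p = 2.07e-06) and the GABA breakdown enzyme ALDH5A1 by 1.24 ± 0.08 (4.49e-07). Of 8 tested astrocyte markers 4 were called higher in H9 vehicle cultures and 5 in dexamethasone cultures, beside 25.7% and 22.5% of all genes. In both treatments 0 were called lower, beside 21.2%. The 9 listed summed to 1673 to 2101 CPM in H9 dexamethasone and 1247 to 1783 CPM in H9 vehicle cultures, against 719.9 to 738.4 CPM in H1 dexamethasone and 783.5 to 859.2 CPM in H1 vehicle cultures. Most of the gap in that sum came from SPARCL1, at 1093 ± 73 CPM in H9 dexamethasone and 892.7 ± 172 CPM in H9 vehicle cultures, against 185.9 ± 2.9 CPM in H1 dexamethasone and 223.1 ± 2.9 CPM in H1 vehicle cultures. GFAP, S100B, SLC1A2 and GJA1 were not called in vehicle cultures, with log2 fold changes of −0.17, −0.29, −0.03 and −0.01. ALDOC was at 0 in all libraries. Their part in these results was not tested.

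Of 22 GABA receptor and inhibitory postsynapse genes, 20 were tested. In vehicle cultures 7 were called higher and 4 lower in H9 (median 0.09), near the 25.7% and 21.2% of all genes. In dexamethasone cultures 9 were called higher and 3 lower (median 0.22), beside 22.5% and 21.2%. GABBR2, a subunit of the GABA-B receptor, averaged 612.9 ± 67.1 CPM in H9 dexamethasone and 576.6 ± 8.5 CPM in H9 vehicle cultures, against 90.0 ± 5.9 CPM in H1 dexamethasone and 86.8 ± 18.0 CPM in H1 vehicle cultures (vehicle log2 fold change 2.73 ± 0.15, edgeR adjusted p = 1.27e-07). Among GABA-A receptor subunits, GABRB1 was higher by 1.22 ± 0.16 (edgeR adjusted p = 7.44e-05) and GABRG3 by 0.74 ± 0.17 (0.00366), while GABRB2 was lower by −1.06 ± 0.21 (0.00142).

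A list of midbrain, hindbrain and spinal inhibitory factors, which also holds regional factors and glycine transporters, differed between the lines in both directions. Of 18 on the list 14 were tested, of which 5 were called higher and 4 lower in both the vehicle (median 0.30) and the dexamethasone comparison (median −0.16). In vehicle cultures this stands beside 25.7% and 21.2% of all genes, and in dexamethasone cultures beside 22.5% and 21.2%. GATA3, a zinc finger factor of midbrain, hindbrain and spinal GABA neurons, averaged 7.10 ± 1.96 CPM in H9 dexamethasone and 6.85 ± 1.82 CPM in H9 vehicle cultures, against 0.428 ± 0.499 CPM in H1 dexamethasone and 0.188 ± 0.031 CPM in H1 vehicle cultures (vehicle log2 fold change 5.14 ± 0.58, edgeR adjusted p = 2.78e-05). TAL1, its partner in those neurons, was higher in H9 by 4.38 ± 0.68 (edgeR adjusted p = 0.000292), and the midbrain and anterior hindbrain factors EN2 and EN1 by 2.80 ± 0.29 (1.31e-05) and 2.64 ± 0.55 (0.00212). All 3 were low, with TAL1, EN2 and EN1 at 2.70, 3.32 and 2.70 CPM on average in H9 vehicle cultures. In H1 vehicle cultures they averaged 0.12, 0.46 and 0.42 CPM. The 4 called lower were OTP, LHX5, TFAP2A and HELT, named after their values were seen. OTP, a homeobox factor of the hypothalamus and spinal cord, was the most abundant gene of the list in H1, at 20.9 ± 3.5 CPM in H9 dexamethasone and 16.2 ± 2.7 CPM in H9 vehicle cultures, against 94.2 ± 22.3 CPM in H1 dexamethasone and 86.3 ± 8.2 CPM in H1 vehicle cultures (vehicle log2 fold change −2.41 ± 0.20, edgeR adjusted p = 2.27e-06). LHX5 was lower by −1.47 ± 0.24 (edgeR adjusted p = 0.000436) and TFAP2A by −1.82 ± 0.35 (0.00137). TFAP2A is also on the list of craniofacial mesenchyme and placode markers used below. HELT was under 1 CPM in every group.

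**Figure D5:**
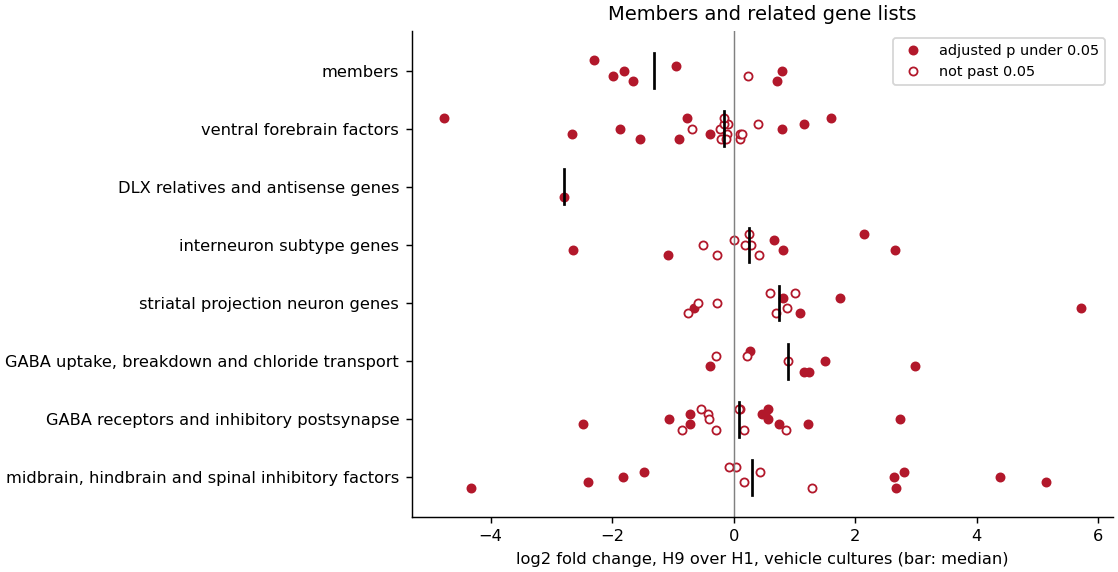
Log2 fold change of H9 over H1 in vehicle cultures (horizontal axis) for the 8 genes and for the tested genes of 7 related lists, 1 point per gene, filled where the edgeR adjusted p was under 0.05, with the median of each list as a bar. The median of the 8 is −1.31, that of the ventral forebrain factors −0.15 and those of the 5 lists below DLX6-AS1 lie between 0.09 and 0.89.

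Markers of other cell types differed between the lines beside these genes. Their calls in vehicle cultures are read beside the 25.7% of all genes called higher and 21.2% called lower in H9. For dexamethasone cultures the shares were 22.5% and 21.2%. Proliferation markers summed to 131.4 to 162.5 CPM in H9 dexamethasone and 91.2 to 145.3 CPM in H9 vehicle cultures, against 596.7 to 613.5 CPM in H1 dexamethasone and 543.1 to 609.5 CPM in H1 vehicle cultures. All 8 were called lower in H9 in both treatments. Excitatory forebrain neuron markers summed to 70.8 to 84.8 CPM in H9 dexamethasone and 59.3 to 70.9 CPM in H9 vehicle cultures, against 106.6 to 184.4 CPM in H1 dexamethasone and 115.9 to 156.0 CPM in H1 vehicle cultures. Of their 9 tested genes 7 were called lower in vehicle cultures (median −2.74) and 6 in dexamethasone cultures (median −2.36), with 0 called higher. Among the 7 was TBR1, by −2.74 ± 0.34 (edgeR adjusted p = 5.35e-05), and NEUROD1 was at 0 in all libraries. TBR1, NEUROD2, EOMES and NEUROD6 averaged only 3.72, 1.73, 1.22 and 0.85 CPM in H9 vehicle cultures, so other listed genes made up most of the H9 sum. Mesenchyme and fibroblast markers summed to 226.9 to 260.9 CPM in H9 dexamethasone and 248.3 to 394.6 CPM in H9 vehicle cultures, against 1454 to 3066 CPM in H1 dexamethasone and 1835 to 3281 CPM in H1 vehicle cultures. In vehicle cultures COL1A1, COL1A2, COL3A1 and POSTN were called lower. TWIST1 was called higher by 2.91 ± 0.39 (edgeR adjusted p = 9e-05) and the other 4 of the 9 were not called. DLX5 and DLX6 also act in craniofacial mesenchyme, whose 10 markers summed to 29.8 to 30.8 CPM in H9 dexamethasone and 25.1 to 27.8 CPM in H9 vehicle cultures, against 16.8 to 19.2 CPM in H1 dexamethasone and 15.2 to 21.1 CPM in H1 vehicle cultures. Of the 10, 9 were tested, of which 3 were called higher and 2 lower in H9 vehicle cultures. The mean over all libraries was under 1 CPM for 5 of the 10, among them SP7 and HAND2. The part of these cell types in the DLX results was not tested.

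Across libraries of the same line, the genes whose log2 level ran most like a score of the 4 DLX genes were COQ10A, WDR33, MARS1, B4GALT3 and HMGN2, and most like a score of GAD1, GAD2 and SLC32A1 were UNC5C-AS1, SS18L2, PRDM12, MEX3A and CELF3. They were ranked among 14966 genes with a mean of at least 1 CPM by the smaller of Pearson's r over the 6 H9 and the 6 H1 libraries, which was 0.959 for COQ10A and 0.916 for UNC5C-AS1. Each line had 6 libraries that differed in treatment and depth, and those of H9 include vehicle culture 3. The ranking therefore only describes these libraries.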

How the data were processed

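Polyadenylated RNA of 12 cultures was sequenced, and groups follow the labelled cell line and condition, with the culture number as the source name gives it. The deposited values are raw whole-number counts of reads per gene, not normalized, in 1 file per library. The submitters' processing notes list STAR 2.5.3a, HTSeq, hg38 and GRCh38.p10 without their roles. Which annotation, strand setting and rule for multiply mapped reads were used is not given in the sources used here.

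Genes were named from a gene name table (57577 identifiers) and GENCODE 29 (507), which also gave positions and exon lengths, and promoter windows came from RefSeq (GRCh38.p14). Total counts ran from 14751168 to 27505804 per library. Counts were filtered with filterByExpr, scaled by TMM and tested with the quasi-likelihood F-test of edgeR 4.0.16, with 1 mean per group over all 12 libraries (8 residual degrees of freedom), Benjamini-Hochberg adjustment over 17819 genes and a threshold of 0.05. The comparisons were dexamethasone minus vehicle in each line, their mean and difference, and H9 minus H1 in each treatment. SE was obtained as the log2 fold change over the root of the F statistic. Replicates are the numbered cultures of a group, and the sources do not say whether they share a differentiation. The p-values cover the spread of these cultures alone, which may be technical. No pair of sister cultures agreed within sampling noise. The chi-square per degree of freedom of their counts was 175 and 167 for H9 vehicle culture 3 with cultures 1 and 2. For all other pairs it was 4.08 to 10.4.

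The 8 genes and the 16 lists (7 of related genes, 9 of markers) were chosen with earlier results of these data known. Up to 4 genes per list with a mean of at least 1 CPM were taken for naming, those called with the largest absolute difference between the lines in vehicle cultures, plus the 5 genes most like each score, and marker lists are mostly given as sums. Some genes that this rule takes in are not reported here. Alternatives were RLE size factors, DESeq2 1.42.0, voom in limma 3.58.1, no filter, a filter of 1 CPM in 3 or more libraries, library sizes without mitochondrial and the 20 most abundant genes, the groups of a comparison alone, culture number as a block, and each library left out in turn. The fit was tested on simulated data. R 4.3.3, Python 3.11.15 and matplotlib 3.10.9 were used.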

Additional observations from a re-analysis of the deposited data

How the results depend on the processing

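The numbers of the 8 genes called were 0 for each dexamethasone comparison and 7 for H9 minus H1 in vehicle cultures under every alternative run, and 5 to 7 for H9 minus H1 in dexamethasone cultures. Of the log2 fold changes of single genes, 907 kept their direction and their side of the threshold, 31 turned direction and 6 passed only under an alternative. The 6 were GAD1 and GAD2 in H9 minus H1 in dexamethasone cultures: with those groups alone (0.37, adjusted p = 0.0107, and −0.33, adjusted p = 0.0288), without H9 vehicle culture 3 (edgeR adjusted p 0.0160 and 0.0281), for GAD1 without H1 dexamethasone culture 1 (0.54, 0.0185) and for GAD2 without H1 dexamethasone culture 2 (−0.47, 0.0430).

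None of the values that turned direction was called. For dexamethasone in H9, GAD1 was −0.00758 with the filter of CPM of at least 1. For the mean of both lines, LHX6 was 0.0426 with voom and 0.0109 with the replicate block. For the difference between the lines, DLX5 was 0.0148 with DESeq2, 0.0808 with voom, 0.0136 with no filter and 0.00141 with the trimmed library sizes. With 1 library left out, dexamethasone effects in H9 ranged from −0.387 to 0.309 for LHX6, −0.0284 to 0.583 for DLX2, −0.0170 to 0.733 for DLX5, −0.0836 to 0.119 for GAD1, −0.0615 to 0.132 for GAD2 and −0.0642 to 0.311 for SLC32A1. LHX6 ranged from −0.297 to 0.405 in H1 and −0.224 to 0.179 in the mean. The difference between the lines ranged from −0.339 to 0.411 for DLX5, −0.561 to 0.0494 for DLX2, −0.248 to 0.135 for DLX6 and −0.555 to 0.260 for LHX6. The cause was not tested.

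Over all genes, dexamethasone in H9 called 12, against 166 with DESeq2, 24 with no filter, 2 with its groups alone and 6 to 53 with 1 library left out. Dexamethasone in H1 called 9, against 32 with DESeq2, 50 with its groups alone, 5 with the replicate block and 3 to 59 with 1 library left out, and the mean of both lines 18, against 116 with DESeq2, 30 with no filter and 10 to 140. H9 minus H1 called 8350 genes in vehicle cultures, against 5284 with the groups alone, and 7777 in dexamethasone cultures, against 11697 without H9 vehicle culture 3, which also gave the 53, 59 and 140. Whether culture numbers pair the samples is not stated and stays undetermined. Deviations of same-numbered cultures correlated weakly, at −0.0145 to 0.113 in H9 and 0.0498 to 0.179 in H1. Of the libraries, 2 of 6 in H9 and 5 of 6 in H1 ran best with their own number. The depth limits LHX6 most, at 16 counts in its lowest library.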
